A study of Homo sapiens with 40 samples.

Results

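Expression arrays labelled replicate 2 from 6 MDV3100-resistant LNCaP clones fell into 2 sets: clones 9 and 10 on one side, clones 14, 15, 19 and 24 on the other. The members were the 12 of the series' 40 arrays with those 6 clone labels and that replicate label, 4 from clones 9 and 10 and 8 from the others, with both treatments of each clone. The division was made from the expression values themselves, because the sets correlated differently with the other lines, so the level differences between them are given as a description and carry no test. The response to MDV3100 in these 12 arrays, and the 12 arrays of the same clone labels in replicate 1, took no part in that division and were tested.

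LNCaP is a human prostate cancer line with luminal features whose growth depends on androgen, and MDV3100, also called enzalutamide, blocks androgen signalling in such cells. The series measured control LNCaP lines, given as sensitive to the compound, and clones given as resistant to it. All lines grew in RPMI medium with fetal calf serum, for 3 d after seeding and then for 24 h with 0.1% DMSO or 10 µM MDV3100. Each of the 6 clones was represented by 1 line, with 1 array per treatment and replicate set, and the labels leave it unsaid whether the replicate sets come from separate cultures, so the p-values below reflect the spread among these arrays, which may be technical.

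Prostate luminal cells are recognised by the simple keratins KRT8 and KRT18, the pioneer factor FOXA1 and secreted kallikreins. Androgen signalling switches on genes such as the kallikreins KLK2 and KLK3, the surface protease TMPRSS2 and the chaperone partner FKBP5, and holds down others, among them the UGT2B enzymes that inactivate androgens. A compound that blocks this signalling would be read first in those genes. The unfolded protein response, in which XBP1 is a transcription factor, and the nuclear machinery of transcription are general programmes of every cell.

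Values are MAS5 signals on whole-genome probe set arrays, an intensity with the same trimmed mean of 150 on all 40 arrays. Differences were taken on a log2(signal + 16) scale, where 1 is a 2-fold difference, between the mean of the clones in each set after averaging each clone's treatments. Of 54675 probe sets, 27338 passed a filter on the mean over all arrays, equal to a signal of 12.14, and the brightest passing probe set of each gene gave 11853 genes. The luminal markers were high in all 12 arrays, with summed signals of 14353 to 16564 in clones 9 and 10 and 10939 to 14044 in clones 14 to 24. The other markers gave sums of 7.9 to 17.4 and 4.8 to 16.2 for leukocytes (0 of 5 passed the filter), 16.6 to 34.8 and 21.7 to 53 for basal prostate cells (0 of 4), 22.1 to 33.6 and 20.7 to 29 for endothelium (1 of 4), and 629 to 787.9 and 534.9 to 1106.9 for fibroblasts and smooth muscle (4 of 7, mostly ACTA2); none was at 0 on all 12 arrays.

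Control probe sets differed between the sets. The signal from the middle of the actin transcript was 3186 to 3376 in clones 9 and 10 and 2040 to 2384 in clones 14 to 24, and the GAPDH 3′ signal was 4430 to 4847 against 3540 to 4041, without overlap in either case. The ratio of 3′ to 5′ signal overlapped, at 2.69 to 3.14 and 2.59 to 3.48 for actin. Their part in the level differences below was not tested.

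The 12 arrays also matched in a way that crosses the sets. After the gene means of each set were subtracted, each array had exactly 1 mutual best match, always of the same treatment: clone 9 with clone 15, clone 10 with clone 19, and clone 14 with clone 24. Across the 11853 genes, which are not independent replicates, these 6 matches had Pearson correlations of 0.374 to 0.668. The other 60 pairs lay between -0.457 and 0.125. The pattern was noticed in the data and is a description; whether the matched labels are independent cultures cannot be told from these files, and the tests below treat the 6 clones as independent.

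What parted clones 9 and 10 from the other 4 clones was mainly a set of genes with lower signal. In 282 genes, 2.38% of those measured, every array of one set lay above every array of the other and the set means differed by at least 1. Clones 9 and 10 were lower in 265 of them (2.24% of all genes) and higher in 17 (0.143%). The median difference was -1.19 in the lower genes and 1.11 in the higher ones, against 0.06 over all genes measured. Non-overlap without a size requirement held for 4329 genes (36.5%), 2433 higher (20.5%) and 1896 lower (16%), so the smaller differences leaned the other way. These counts follow from the choice of the sets and nothing is read from them. In bulk RNA, fewer cells of a type and less RNA per cell cannot be told apart.

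The 12 lower genes with the greatest differences have varied known roles. RAB12, a small GTPase of endosomal traffic, had signals of 311.3 (DMSO) and 163.4 (MDV3100) in clone 9 and 401.0 and 171.3 in clone 10. In the 8 arrays of clones 14 to 24 its lowest, median and highest signals were 748.9, 1131.5 and 1359.3, a difference of -2.10. The sets were well apart, and within clones 9 and 10 the treated arrays were the low ones.

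BBS10, a chaperonin-like protein needed for assembly of the BBSome of cilia, had 124.9 and 104.7 in clone 9 and 92.2 and 107.3 in clone 10, against 340.2, 514.7 and 600.2 (difference -2.03). RARS1, the arginyl-tRNA synthetase, had 299.0, 288.3, 283.4 and 264.1 in the same order, against 712.0, 1134.4 and 1515.8 (difference -1.95). The 4 RARS1 values of clones 9 and 10 lay close together, whereas the lowest of the other 8 arrays was the DMSO array of clone 14.

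RDH13, a mitochondrial retinol dehydrogenase, had signals of 98.0, 74.3, 106.5 and 79.8 against 334.6, 364.7 and 431.8 (difference -1.87). POLR3F, a subunit of RNA polymerase III, had 135.6, 111.9, 146.4 and 139.9 against 442.7, 500.6 and 663.5 (difference -1.87). TAF2, a subunit of the general transcription factor TFIID, had 385.2, 352.9, 320.7 and 291.8 against 1107.4, 1229.0 and 1405.4 (difference -1.83). In these 3 genes every array of clones 14 to 24 had more than double the highest signal of clones 9 and 10.

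ZFX, a zinc finger transcription factor encoded on the X chromosome, had 115.0, 116.4, 111.5 and 106.4 against 322.0, 389.05 and 463.0 (difference -1.64). CENPK, a kinetochore subunit, was dim in clones 9 and 10 at 38.9, 34.8, 49.7 and 35.3, against 111.9, 160.45 and 223.5 (difference -1.65). ZNF382, a KRAB zinc finger protein, had 83.6, 83.2, 102.0 and 76.9 against 275.4, 300.6 and 365.8 (difference -1.66). The remaining 3 of the 12 greatest lower differences were ZC3HAV1L (-1.71), SGPP1, a sphingosine-1-phosphate phosphatase (-1.70), and SPAG16, a protein of the sperm axoneme (-1.64). The spread between clones was small beside these gaps: for RDH13 the SD of clone means was 0.07 in clones 9 and 10 (n = 2) and 0.04 in clones 14 to 24 (n = 4), and for RAB12 0.15 and 0.32.

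Among the 17 higher genes, SULT2B1, a sulfotransferase that acts on cholesterol and steroid hormones, had the greatest difference (1.45). Its signals were 94.2 and 118.1 in clone 9 and 156.7 and 111.4 in clone 10, against 11.2, 34.9 and 66.6 in clones 14 to 24. Both treated arrays of clones 14 and 24, at 11.2 and 15.7, were the lowest.

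PTMS, parathymosin, a small acidic nuclear protein, had 886.5, 863.6, 970.0 and 794.8 against 258.1, 323.3 and 396.7 (difference 1.39). THAP4, a protein with a THAP zinc finger, had 1074.0, 1031.6, 1034.2 and 1137.0 against 327.2, 412.0 and 431.5 (difference 1.37). Both genes had narrow ranges in each set, and clones 9 and 10 had more than double the signal of any of the other 8 arrays.

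PDGFA, a ligand of the platelet-derived growth factor receptors, had 275.9, 332.8, 292.2 and 281.7 against 69.1, 147.7 and 201.1 (difference 1.08). Its 2 lowest arrays were again the treated arrays of clones 14 and 24. The other higher genes among the 12 greatest were LOC101927164 (1.28), the pseudogenes LRRC37A8P (1.27) and BMS1P20 (1.19), TANGO2 (1.14), the histone H2A variant H2AJ (1.13), the endocytic adaptor EPN3 (1.11), RBFA, a mitochondrial ribosome-binding factor (1.09), and NSMCE2, the SUMO ligase of the SMC5/6 complex (1.08). Just inside the least difference lay CLEC11A (-1.0012), HMGB3P1 (-1.0025) and VRK3 (1.003), and just outside it ZNF443 (-0.9992), SLC31A1 (0.996) and SYCP3 (-0.995).

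**Figure D1:**
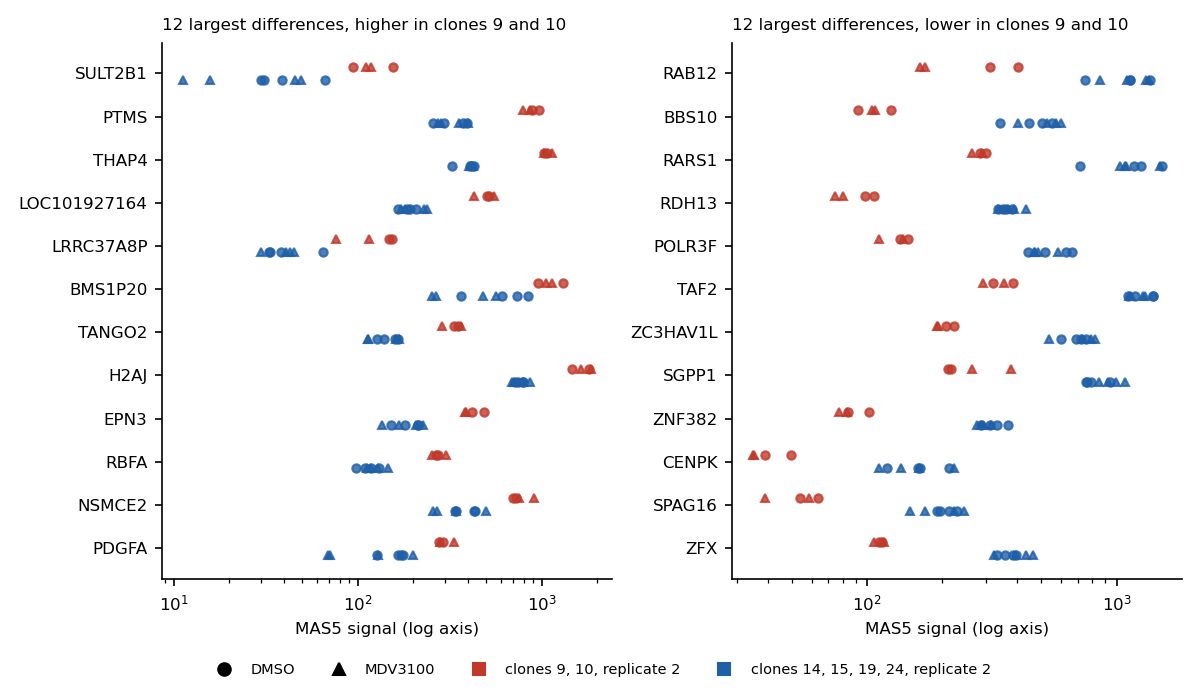
MAS5 signal (log axis) of the 12 genes with the greatest differences in each direction, 1 point per array, circles for DMSO and triangles for MDV3100, with clones 9 and 10 of replicate 2 in red (4 arrays) and clones 14, 15, 19 and 24 in blue (8 arrays). The colours do not overlap in any of the 24 genes, which is part of how the genes were chosen; RAB12 shows the treated arrays of clones 9 and 10 at 163.4 and 171.3, below their DMSO arrays.

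The probe sets of a gene did not move together in most of these genes. Of the 282 genes, 159 had other probe sets that passed the filter, 291 in all, and 176 of those (60.5%) had the sign of the gene's brightest probe set. Only 18 (6.19%) were also free of overlap with a difference of at least 1. For the 150 lower genes with other probe sets, the median difference was -1.19 on the brightest and -0.12 on the others. RAB12 had -0.21, TAF2 -0.01 and SGPP1 0.15 on their other probe set, so that a statement about these genes holds for 1 probe set only.

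In 5 of the 159 genes with other probe sets, every passing probe set parted the clones. SRSF11, a splicing factor, had 3 such probe sets with differences of -1.18 to -1.13, and signals of 538.6 to 615.3 in clones 9 and 10 against 1220 to 1475 on the brightest. MED4, a subunit of the Mediator complex, had 124.5 to 143.7 against 269.2 to 385.2 (difference -1.25), and RFK, riboflavin kinase, had 313.8 to 454 against 654.5 to 1061 (difference -1.14). ZNF721, a zinc finger gene (-1.16), and LOC646214 (-1.26) were the other 2.

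The pathway lists parted the sets about as often as all genes did. The 31 lists held 461 different measured genes, and 10 of them (2.17%) parted the sets, against 2.38% of all genes. One was SULT2B1, on the steroid enzyme list (14 measured), and the other 9 were lower in clones 9 and 10. They were spread over 8 lists, and no list had more than 2.

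XBP1, the transcription factor of the unfolded protein response, had signals of 292.7, 283.7, 262.5 and 306.3 in clones 9 and 10 against 726.7, 792.45 and 864.3 in clones 14 to 24 (difference -1.42). It was the only member of its list of 23 to part the sets, and the list as a whole leaned the other way, with 18 of 23 genes higher in clones 9 and 10 and a median of 0.18 against 0.06 over all genes. PMAIP1, the BH3-only death protein NOXA, had 169.1, 139.8, 181.2 and 161.2 against 336.4, 394.7 and 530.2 (difference -1.26), but 0.24 on its other probe set. In the BCL2 family list it was 1 of 14 measured, with a list median of 0.18.

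ITGA6, the integrin chain that binds laminin and is used as a basal marker in the prostate, had 289.5, 292.8, 326.7 and 234.4 against 715.6, 802.7 and 1020.2 (difference -1.51). It was the only 1 of the 10 genes on the basal list to be measured, so nothing is read from it about basal cells. THBS1, the matrix glycoprotein thrombospondin 1, had 85.1, 176.4, 238.0 and 208.8 against 251.4, 332.8 and 639.0 (difference -1.07), and COL4A5, a basement membrane collagen chain, 218.3, 241.9, 181.9 and 231.6 against 356.8, 453.45 and 518.7 (difference -1.005). THBS1 had a thin gap, since its highest array in clones 9 and 10 nearly met the lowest of the others. It was also at 49.5 or below on all 28 arrays outside the 12. CNTNAP2, named below, had a thin gap too, with at most 161.0 in clones 9 and 10 against at least 186.4. The last members were PTGR2, a prostaglandin reductase (-1.47), the transcriptional repressor ZBTB10 (-1.19), TBC1D4, a GTPase-activating protein for RAB proteins (-1.08), and CNTNAP2, a neuronal adhesion protein (-1.05).

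Smaller differences without overlap are given for 2 of the 31 lists, with the lists and the genes named picked as examples. Over all genes the shares without overlap were 20.5% higher and 16% lower. In the mitochondrial respiratory chain list none of 27 measured genes reached a difference of 1, 14 were higher in clones 9 and 10 without overlap and 2 lower, and the median was 0.21. NDUFV1, a complex I subunit, differed by 0.62 and SDHC of complex II by 0.49, while SDHD of the same complex differed by -0.60. On the luminal identity list (16 measured, 3 higher and 1 lower without overlap, median 0.03) KRT8 had 842.6 to 1090 in clones 9 and 10 against 473 to 639.8, and KRT18 2743.1 to 3157.1 against 1739.9 to 2166.5, whereas FOXA1 had 260.9 to 298.9 against 421.8 to 684.8. The differences were 0.74, 0.59 and -0.98, and the epithelial transcription factor GRHL2 was the other member without overlap, at 0.54.

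Of 32 measured androgen-induced genes, 2 (ZBTB10 and TBC1D4) parted the sets and were lower, beside 2.24% of all genes, and the list median was 0.04 against 0.06 over all genes. Of 10 androgen-repressed genes 0 parted, beside 2.38% of all genes in either direction, and with so few members nothing is read from the counts. KLK2 had signals of 2857.0, 3412.0, 2898.2 and 3132.6 in clones 9 and 10 and 2080.8, 2586.8 and 3179.4 in clones 14 to 24 (difference 0.25), with overlap. KLK3 (0.21) and FKBP5 (0.01) also overlapped.

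TMPRSS2 was higher in clones 9 and 10 without overlap, at 2596.6, 2574.6, 1751.6 and 2458.7 against 1158.2, 1455.2 and 1733.4 (difference 0.68). The margin was thin, since the DMSO array of clone 10 lay just above the DMSO array of clone 14. Other genes followed in this series gave -0.17 for the ETS factor ETV1, -0.52 and -0.12 for the androgen-inactivating enzymes UGT2B17 and UGT2B15, -0.52 for the alcohol dehydrogenase ADH1C, -0.52 for the sialyltransferase ST6GALNAC1, 0.30 for the Hippo pathway coactivator WWTR1, -0.35 for the opioid receptor OPRK1 and -0.26 for the cation channel TRPM8, all with overlap. CYP1A2, a drug-metabolizing enzyme, was free of overlap at low signal, 18.2 to 22.0 against 25.3 to 40.7 (difference -0.43).

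Set beside the other 28 arrays, clones 14 to 24 were the side further off for most of these 282 genes. The median of the 28 arrays lay nearer to clones 9 and 10 in 252 of the 282 genes and nearer to clones 14 to 24 in 30. The share over all genes is not given, so these counts describe the chosen genes only. The mean log2 level of the 265 lower genes was 7.46 to 7.56 in clones 9 and 10 and 8.60 to 8.91 in clones 14 to 24. In the other cultures it was 7.30 to 7.89 on 26 arrays, but 8.67 and 8.84 on the MDV3100-treated arrays of control 1 and control 2 in replicate 1. Those 2 control arrays had the level of clones 14 to 24, and the remaining 26 bracketed that of clones 9 and 10. The 17 higher genes gave 8.73 to 8.88, 7.43 to 7.87, 8.26 to 9.10 on the 26 arrays, and 7.83 and 7.85 on the 2 control arrays.

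**Figure D2:**
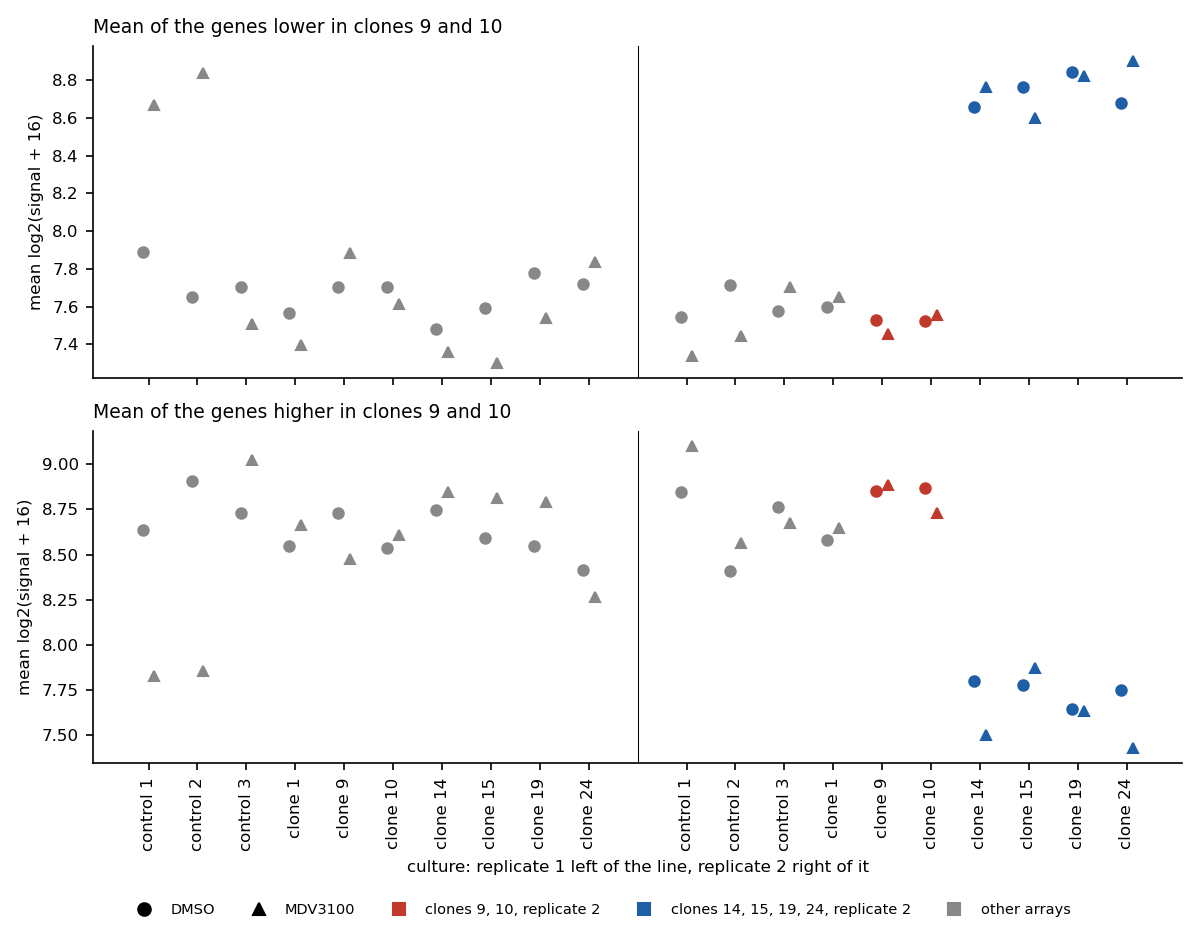
Mean log2(signal + 16) of the 265 lower genes and of the 17 higher genes on every array, by line with replicate 1 left of the line and replicate 2 right of it, circles for DMSO and triangles for MDV3100; red marks clones 9 and 10 and blue clones 14 to 24. The genes were chosen on the 12 replicate 2 arrays of the 6 clones, so their separation there is given; among the other 28 arrays the MDV3100 arrays of control 1 and control 2 in replicate 1 stand at 8.67 and 8.84 for the lower genes, and the other 26 between 7.30 and 7.89.

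The difference between the treatments in those 2 control cultures ran along the same genes. MDV3100 minus DMSO in control 2 of replicate 1 had a Pearson correlation of 0.781, across the 11853 genes, with clones 14 to 24 minus clones 9 and 10, and 281 of the 282 genes had the same sign, 201 of them by at least 1. Control 1 of replicate 1 gave 0.5, with 280 genes of the same sign and 71 by at least 1. Over all genes the same-sign shares were 79.5% and 66%. In the lower genes the median treatment difference was 1.18 in control 2 and 0.80 in control 1. None of these 4 control arrays entered the contrast of the clones, but the sets were divided because they correlated differently with the other lines. These controls are among those lines. Gene-centred profiles of control 2 in replicate 1 correlated by -0.42 to -0.33 with clones 9 and 10, and by -0.06 to 0.07 with clones 14 to 24. For control 1 the ranges were -0.49 to -0.43 and -0.06 to 0.05. The likeness may thus follow from that division and is a description. In the other 12 cultures outside the contrast, the treatment difference had correlations of -0.44 to 0.348, with 32 to 216 genes of the same sign. Its medians in the lower genes were -0.28 to 0.21.

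XBP1 shows the pattern gene by gene: 280.0 with DMSO and 838.1 with MDV3100 in control 2, 282.3 and 842.9 in control 1, and 217.1 to 457.8 on the other replicate 1 arrays. RDH13 had 70.8 and 279.6, and 103.8 and 336.0, in the same controls. Both treated controls reached the level of clones 14 to 24 for XBP1. In 233 of the 282 genes both treated control arrays lay on the side of clones 14 to 24, and the share over all genes is not given. These 2 arrays shared a low middle actin signal with them, at 1770 and 1774, below the 2040 to 2384 of clones 14 to 24. The treated control 2 array had the highest ratios of 3′ to 5′ signal of any array, at 6.59 for actin and 1.47 for GAPDH. The DMSO array of control 2 had 3.18 and 1.26. In control 1 the ratios were 4.26 and 1.18 with MDV3100, and 4.08 and 1.31 with DMSO. The part of these control probe sets in the likeness was not tested.

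**Figure D3:**
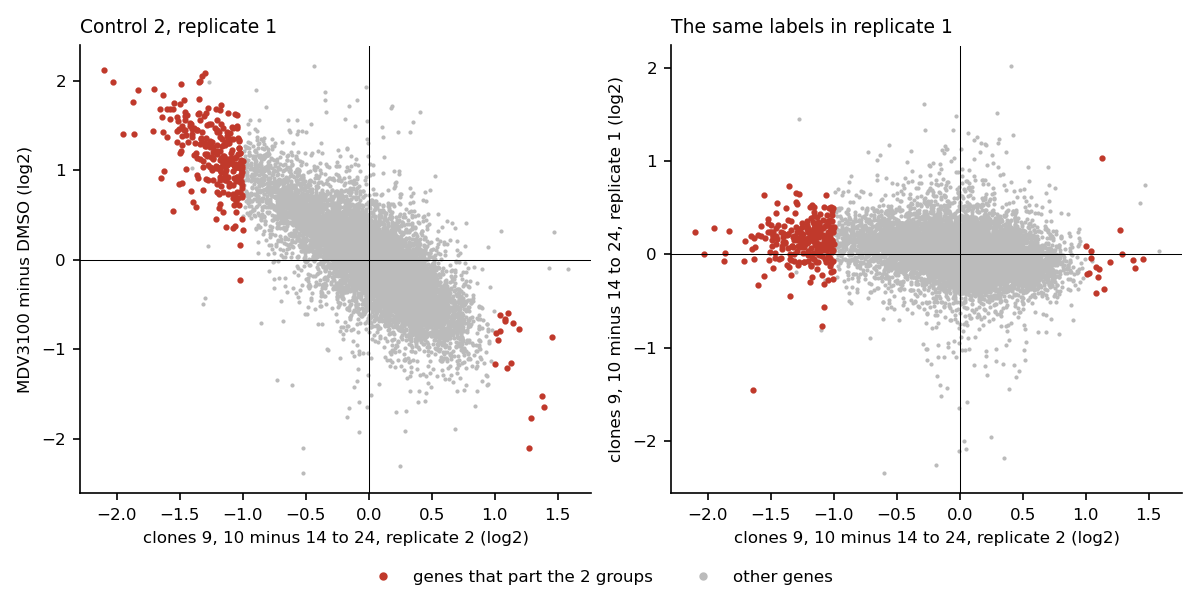
Level difference of clones 9 and 10 minus clones 14 to 24 in replicate 2 (x axis, log2) for all 11853 genes, 1 point per gene with the 282 parting genes in red, against MDV3100 minus DMSO in control 2 of replicate 1 (left) and against the same difference of clones in replicate 1 (right). On the left the points slope downwards and 281 of the 282 red points take the sign of clones 14 to 24; on the right the red points have a median of 0.16 and H2AJ and SPAG16 stand out at 1.03 and -1.46.

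In 49 of the 282 genes the treated control arrays were not both on the side of clones 14 to 24. In 129 genes none of the other 26 arrays lay on the side of clones 14 to 24, which does not require reaching their range. In 52 genes the 8 arrays of clones 14 to 24 were apart from all other 32 of the series. CENPK had an intermediate value, at 55.0 and 83.4 in the treated controls against at least 111.9 in clones 14 to 24. In 17 genes it was clones 9 and 10 that were apart from all other 36 arrays, 16 of them lower. Examples picked from these are the nuclear receptor coactivator NCOA2, the phosphatidylinositol synthase CDIPT, the inositol phosphatase OCRL and the NAD kinase NADK2. All these counts are taken within the 282 genes, which were chosen for non-overlap. The shares over all genes are not given, so nothing is read from the counts.

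H2AJ was the 1 gene in which clones 9 and 10 were above all other 36 arrays. Its signals were 1464.2 and 1862.7 in clone 9 and 1799.8 and 1641.9 in clone 10, against 693.4 to 866.1 in clones 14 to 24. Control lines in replicate 1 had 423.1 to 961.1, and control 1 in replicate 2 had 748.2 and 945.7. All clones in replicate 1 had 3.1 to 88.4, and clone 1 and controls 2 and 3 in replicate 2 had 2.8 to 27.9. The array values thus fell into a bright and a dim range, with the replicate 2 clones 9 to 24 in the bright one and the same labels of replicate 1 in the dim one. Of its 4 probe sets, 2 parted the clones (1.13 and 1.04), and the other 2 had -0.61 and -0.18.

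The same clone labels in replicate 1 gave a different picture. By limma with Benjamini-Hochberg adjustment, the level difference of clones 9 and 10 from clones 14 to 24 in replicate 1 passed the threshold in 0 of 11853 genes, with 693 (5.85%) at an unadjusted p under 0.05. Of the 282 genes, 56 (19.9%, exact 95% interval 15.4 to 25% for counting error only) had the same sign in replicate 1, against 37.8% of all genes. The share depended on single clones: with the genes chosen anew it was 34.8% without clone 9, 29.9% without clone 14 and 13.0% without clone 24. In the full sets, the replicate 1 differences of the 282 genes ranged from -1.46 to 1.03 with a median of 0.16.

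Only H2AJ and SPAG16 differed by at least 1 in the same direction in both replicate sets. For H2AJ the replicate 1 difference was 1.03 ± 0.31 (SE, limma adjusted p = 0.786), between signals that were dim in both sets. For SPAG16 it was -1.46 ± 0.67 (SE, limma adjusted p = 0.786), and clone 14 of replicate 1, at 1.9 and 0.6, was as low as clones 9 and 10. Androgen-induced KLK2 had 123.8 to 828.7 in clones 9 and 10 of replicate 1, 196.5 to 2148.8 in the others and a difference of -1.96 ± 0.59 (SE, limma adjusted p = 0.787). TMPRSS2 had -0.83 ± 0.18 there (SE, limma adjusted p = 0.787), with 845.5 to 2432.8 against 1536.4 to 3192.9.

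Clone by clone, the replicate 2 arrays were more alike within the sets than between them. The number of genes that differed by at least 1 was 0 to 42 for the 7 pairs of clones within a set (median 21) and 279 to 519 for the 8 pairs between sets (median 354.5). Clones 14 and 24 had 0 such genes, and clones 9 and 10 had 21. In replicate 1 the same labels gave 76 to 494 within and 9 to 497 between, and the lowest count, 9, joined clones 10 and 14 across the sets. With each gene centred over the arrays, the profiles of clones 9 and 10 had a correlation of 0.884 with each other, and 0.399 to 0.532 with those of clones 14 to 24.

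A small group of genes separated clones inside both sets. Clones 9 and 10 differed by at least 1 in 21 genes, and 67 genes ranged by at least 1 over clones 14 to 24; 15 genes were in both, 71.4% of the first and 22.4% of the second. Of the 21 genes, 20 had the same sign in clone 15 minus clone 19 as in clone 9 minus clone 10, and 12 of those by at least 1. The correlation of these differences across all genes was 0.574, with 65.9% of genes sharing a sign. Clone 14 minus clone 24 gave 8 of 21 and 0.0291.

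LXN, latexin, an inhibitor of carboxypeptidases, had signals of 626.1 and 864.3 in clone 9 and 94.8 and 303.7 in clone 10. Clone 15 had 456.9 and 718.8 and clone 19 had 55 and 241.6, while clones 14 and 24 had 345.7 and 605.5, and 379.8 and 594.3. Clones 10 and 19 were thus the low ones, although they belong to different sets, and in all 6 clones the treated array was the higher.

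PLA2G2A, a secreted phospholipase, was high in the same clones, at 1232 and 1024 in clone 10 and 840.1 and 773.2 in clone 19, against 42.8 to 246.7 in the other 4. LRRTM4, a synaptic adhesion protein, had 125.6 and 158.8 in clone 10 and 201.5 and 284 in clone 19, against 6.2 to 85.9. The matrix protease MMP7 (-1.77 in clone 9 minus 10, -1.77 in clone 15 minus 19), the serpin SERPINI1 (-1.42 and -1.40) and the testis antigen PAGE1 (-1.47 and -1.03) were higher in clones 10 and 19 as well. RALYL, an RNA-binding protein, was the reverse, at 1.45 and 1.69. These 7 genes were named after their values were seen, as examples from the 15 genes in both counts; other genes, DDC among them, ranged as widely.

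**Figure D4:**
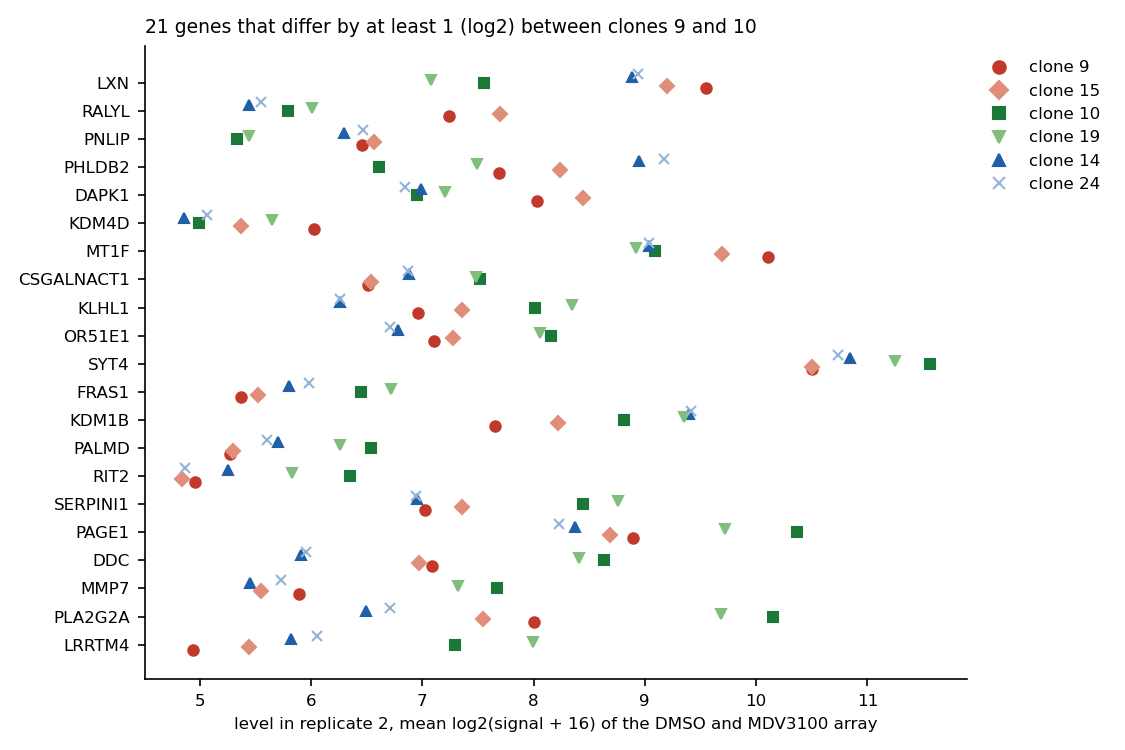
Level in replicate 2, the mean log2(signal + 16) of the DMSO and MDV3100 arrays, of the 21 genes that differed by at least 1 between clones 9 and 10, with 1 symbol per clone. Clones 15 and 19 differ in the direction of clones 9 and 10 in 20 of the 21 genes, as for LXN at 9.55 and 9.20 (clones 9 and 15) against 7.56 and 7.08 (clones 10 and 19).

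Each clone can also be set against its match, with the same arrays that made the sets, so the values follow from that choice and support nothing. Genes that differed by at least 1 in the same direction in clone 9 against 15 and clone 10 against 19, with each treatment, numbered 296, of which 277 were lower and 19 higher in clones 9 and 10. Of these, 260 were among the 282, which is 87.8% of the former and 92.2% of the latter. The 4 difference profiles had correlations of 0.828 to 0.876 with each other across genes, and 68.1% of all genes had the same sign in all 4. The matches themselves were noticed in these data.

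The response to MDV3100, taken as treated minus DMSO array in each clone, did not follow the sets. It correlated by 0.585 between clones 9 and 15, 0.664 between clones 10 and 19 and 0.704 between clones 14 and 24, across the 11853 genes. The other 12 pairs of clones had -0.118 to 0.0634. In replicate 1 the same 3 pairs had -0.0866 to 0.22, and the other 12 had -0.0586 to 0.524. Genes in which both clones of a match had a response of at least 1 in the same direction numbered 34 for clones 9 and 15, 53 for clones 10 and 19 and 68 for clones 14 and 24, against 2 to 10 in the other 12 pairs. With 1 array per clone and treatment, a response cannot be told apart from a difference between those 2 arrays.

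**Figure D5:**
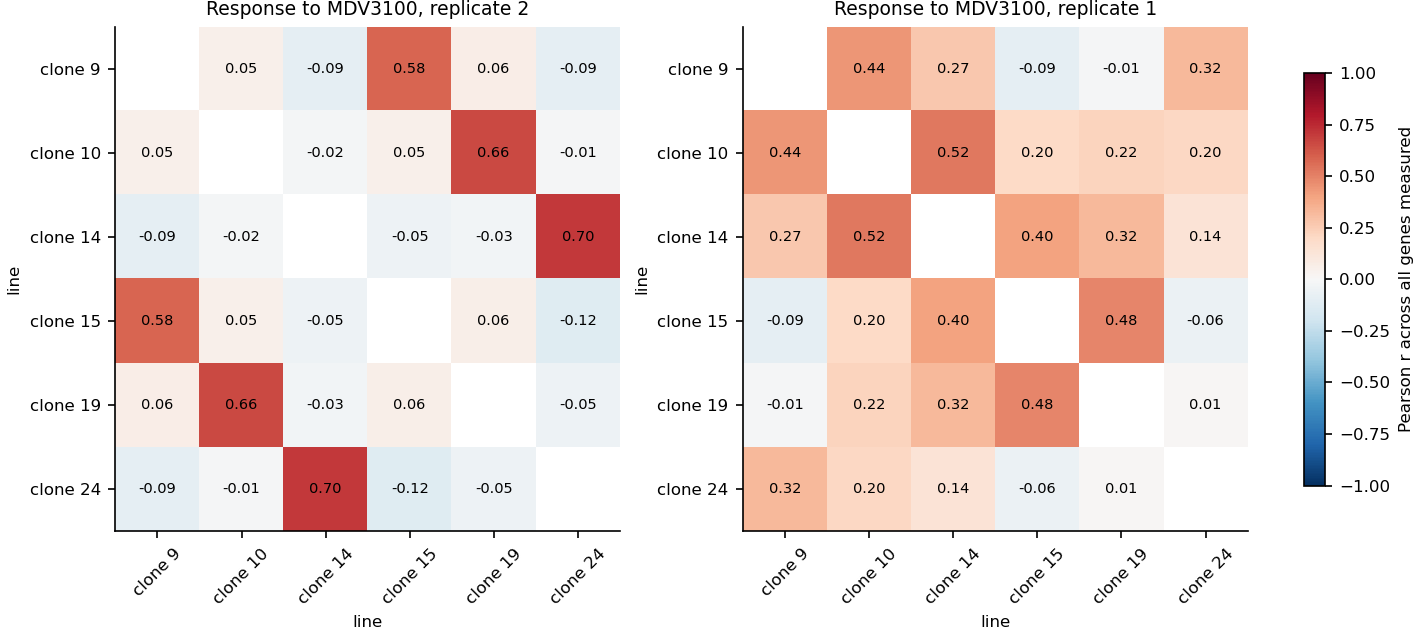
Pearson correlation, across 11853 genes, of the response to MDV3100 (treated minus DMSO, log2 scale) between each pair of clones, in replicate 2 on the left and replicate 1 on the right. In replicate 2 the pairs 9 and 15, 10 and 19, and 14 and 24 stand at 0.585 to 0.704 and the other 12 pairs at or below 0.0634; in replicate 1 those 3 pairs are at 0.22 or below.

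The directions differed by match: 27 of the 34 genes of clones 9 and 15 had negative responses, 40 of the 53 of clones 10 and 19 positive ones, and 50 of the 68 of clones 14 and 24 negative ones. The genes below were named after their values were seen, as examples of each match, and their responses were not tested apart from the fit over all genes. OR51E1, an olfactory receptor present in prostate, went from 213.3 to 67 in clone 9 and from 238.3 to 78.7 in clone 15. It went from 127.6 to 553.7 in clone 10 and from 115.1 to 529.1 in clone 19, and from 165 to 51.3 in clone 14 and 157.4 to 46.9 in clone 24. Its response was thus positive in clones 10 and 19 and negative in the other 4, with values within a match close together.

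KDM1B, a histone lysine demethylase, had responses of -2.47 and -2.62 in clones 9 and 15, going from 458.2 to 69.5 and from 722.6 to 104.5. In the other 4 clones it had 399.8 to 691.4 on every array, with responses of -0.14 to 0.23. GCG, the glucagon precursor, went from 211.8 to 27.3 and from 178.8 to 43.3 in the same clones, but from 25.8 to 79.7 in clone 10 and from 24.8 to 75.8 in clone 19. CRYAB, a small heat shock protein, went from 149.6 to 657.6 in clone 10 and from 152.3 to 655.7 in clone 19, and in the other 4 clones its response was -0.53 to -0.12.

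SHC3, a signalling adaptor, had responses of -2.53 and -2.07 in clones 14 and 24, from 248.6 to 29.9 and from 206.2 to 37, against 0.66 and 0.64 in clones 9 and 15. STEAP4, a metalloreductase, went from 22.2 to 128.5 and from 26.5 to 115.5 in clones 14 and 24. PDGFA had responses of -1.12 and -1.18 in those clones and -0.05 to 0.26 in the other 4; its 2 low arrays named above are the treated arrays of these clones. TWIST1, a transcription factor of mesenchymal cells, had -1.38 and -1.35 in clones 9 and 15, -1.08 and -1.23 in clones 14 and 24, and 0.38 and 0.55 in clones 10 and 19.

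The interferon and DNA replication lists, picked as examples from the 31 lists, described the same matches at smaller sizes. Not every list did. The 13 measured mesenchymal and motility genes had a median response of -0.17 in clone 9 but 0.10 in clone 15. The 24 measured interferon-stimulated and antigen presentation genes had a median response of 0.27 in clone 9 and 0.31 in clone 15, -0.43 in clone 14 and -0.34 in clone 24, and 0.01 and 0.04 in clones 10 and 19. The 24 DNA replication genes had -0.26 in clone 10 and -0.32 in clone 19, against -0.02 to 0.11 in the other 4. The androgen-induced genes had medians of 0.03 to 0.13 in all 6 clones and the 10 androgen-repressed ones -0.36 to -0.06, against -0.03 to 0.01 over all genes. In replicate 2, KLK2 had responses of -0.56 to 0.25, KLK3 -0.31 to 0.13, TMPRSS2 -0.28 to 0.49 and FKBP5 -0.12 to 0.44. In replicate 1 the same labels had -2.60 to 0.15, -1.36 to 0.26, -1.24 to 0.21 and -0.50 to -0.12. CYP1A2 and TRPM8 had 1.19 to 2.65 and -2.16 to -1.37 in replicate 1, against -0.19 to 0.34 and -0.34 to 0.63 in replicate 2. These differences between the replicate sets were not tested. For the interferon and DNA replication lists the clones of a match had like values. The androgen-repressed medians were -0.06 and -0.08 in clones 9 and 10 and -0.36 to -0.11 in the other 4 clones. The mean responses of that list overlapped, at -0.25 and -0.31 against -0.47 to -0.25, and the difference was not tested.

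Between the sets, the response differed in 0 of 11853 genes by limma at the Benjamini-Hochberg threshold, and 288 (2.43%) had an unadjusted p under 0.05. The lowest p was that of RAB12, whose response was lower in clones 9 and 10 than in clones 14 to 24 by 1.10 ± 0.14 (SE), with a limma adjusted p of 0.999. YJEFN3 (-1.04), KMT2E-AS1 (-0.69) and PBX4 (-0.60), the next by p, also had a limma adjusted p of 0.999. A p that misses the threshold does not show that the sets responded alike. The fits took all clones as independent, although clones 9 and 15, and 10 and 19, match across the sets, and 14 and 24 match within one.

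DDC, the decarboxylase that makes dopamine and serotonin from their amino acid precursors, was the 1 gene that passed the threshold for a response in either set (1 of 11853 in each, 0.00844%). At an unadjusted p under 0.05 there were 617 genes (5.21%) in clones 9 and 10 and 979 (8.26%) in clones 14 to 24. Its signal went from 212.3 to 65.3 in clone 9, from 611.3 to 235 in clone 10, from 82 to 20.9 in clone 14, from 178.5 to 64.8 in clone 15, from 493.3 to 211 in clone 19 and from 76 to 25.9 in clone 24. It fell in 6 of 6 clones: by 1.41 ± 0.11 (SE, limma adjusted p = 0.0267) in clones 9 and 10 and by 1.24 ± 0.08 (SE, limma adjusted p = 0.00537) in clones 14 to 24. The difference between the sets was -0.16 ± 0.13 (SE, limma adjusted p = 0.999). Leaving out any 1 of the 6 clones ended the call in clones 9 and 10 (limma adjusted p of 0.0811 to 0.762), and leaving out any 1 of clones 14, 15, 19 and 24 ended it in clones 14 to 24 (0.0517 to 0.0827). In replicate 1 the same labels had 0.52 (limma adjusted p = 0.294) and 0.47 (limma adjusted p = 0.118), in the opposite direction.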

How the data were processed

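RNA from the 40 cultures was hybridised to Affymetrix whole-genome expression arrays, and the deposited table of the authors holds MAS5 intensities, linear signals scaled to a common trimmed mean, per the submitters' processing notes and the values; the MAS5 version is not given in the sources used here. Probe sets were named from the platform annotation given here: 41097 had 1 gene, 1801 several and 11777 none, and those with several or none were left out. Signals were used as log2(signal + 16), and the brightest probe set that passed the filter (at the median of all probe sets' means) stood for a gene. Responses and replicate 1 levels were tested with limma 3.58.1 in R 4.3.3 with Benjamini-Hochberg adjustment over 11853 genes, on clone means or clone responses; level differences in replicate 2 chose the sets and were not tested. Genes named by rule were the 12 greatest differences in each direction and list members that parted the sets. Genes followed in the series and the responses with the lowest p-values were named too. Other named genes fall outside these rules, as members of a counted group or as examples picked from the data. The clones and the gene lists were chosen with earlier results of these data known. Tested on simulated data for 11853 genes, the response test recovered 57% of changes of 1 and 93% of changes of 2, and the replicate 1 level test 77% and 92%. The simulated clones were independent of each other, unlike the matched responses described above, so these shares may not hold for these arrays. Precision is limited by how few arrays there are. The 41 alternatives listed and 7 added after seeing the data are under the dependence on processing.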

Additional observations from a re-analysis of the deposited data

Results flagged for a closer look

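Among the 46 genes looked at, 3 had 1 clone of the 4 in clones 14 to 24 of replicate 2 far from the other 3 by Dixon's criterion, which chance meets in about 1 of 20 groups. All are levels on the log2(signal + 16) scale, averaged over the treatments of a clone. NSMCE2, the SUMO ligase that was higher in clones 9 and 10, had 8.75 in clone 15 and 8.45 to 8.49 in the other 3. FKBP5 had 11.6 in clone 14, against values that all round to 11.5. TRPM8, a cation channel regulated by androgen, had 9.64 in clone 19 and 8.51 to 8.67 in clones 14, 15 and 24; clone 10, the match of clone 19, had signals of 556.9 and 465.1 against 289.3 and 263.0 in clone 9.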

How the results depend on the processing

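The 282 genes that parted the sets became 133 with a pseudocount of 64, 144 with the mean of a gene's probe sets, 128 when every probe set had to agree in sign and size, 4329 with no least difference and 2 with a least difference of 2 (0 of these with the replicate 1 sign); leaving out any clone gave 272 to 345. The 128 include the genes with only 1 passing probe set, which cannot disagree, since 159 of the 282 had others. The same-sign share in replicate 1 was 15.238% with the stricter filter and 13.043% (without clone 24) to 34.783% (without clone 9). With both replicate sets and the replicate block, 0 genes passed for the level. The labels do not say what arrays with 1 replicate number share; the shift from replicate 1 to 2 correlated by 0.665 across genes between the sets. The response difference stayed at 0 genes in every setting run, with 451 genes with the replicate block and 386 without it at an unadjusted p under 0.05. Replicate 1 levels gave 0 genes, and 1 without clone 14. For the response in clones 9 and 10, a pseudocount of 1, any clone left out, and clones 14 and 24 taken as 1 line each gave 0. In clones 14 to 24 a pseudocount of 1 gave 0, one of 64 gave 6, the stricter filter and the mean of probe sets 2 each, and leaving out a clone 0 or 1. The DDC response in replicate 1 alone was reversed, at 0.5155 for clones 9 and 10 and 0.4688 for clones 14 to 24. For the level differences of 33 single genes, 455 pairs of gene and setting, 395 values moved by less than 1 SD, 60 by more and 0 changed sign; where values moved, the cause was not tested.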

Other observations

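Genes with zinc finger symbols were counted after the values were seen, and the count was not tested. Of 420 measured genes with symbols starting with ZNF, 17 (4.05%) parted the sets and were lower in clones 9 and 10, beside 2.24% of all genes, 0 were higher, and the median was -0.11 against 0.06 over all genes, with 248 of 420 negative; probe sets of such related genes can share transcripts. Neighbours in the current gene order, 11841 placed genes, formed 208 runs of 3 or more without overlap in 1 direction, beside a background of 36.5% of genes without overlap. A run of 6 zinc finger genes, ZNF736, ZNF680, ZNF107, ZNF138, ZNF273 and ZNF117, was lower with a median of -1.08, and 4 of them parted the sets. ZNF382, ZNF567 and ZNF850 formed the 1 run in which every gene differed by at least 1, with a median of -1.41.

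The lower genes spanned a median of 46.86 kb in the genome, the higher ones 24.87 kb and all placed genes 29.33 kb.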
